A study of Homo sapiens with 4 samples.

Results

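The 10 genes described here encode the MLL family of histone methyltransferases, KMT2A, KMT2B, KMT2C and KMT2D, their partners MEN1, PSIP1 and ASH2L, and the methyltransferase DOT1L with its cofactors MLLT10 and MLLT6. They were taken by symbol, and all 10 were found among the 28103 genes of the count table. The cells were HEL, a line from a human erythroleukaemia that the labels describe as erythroblast, and polyadenylated RNA was measured in 2 libraries labelled AFF4 knockdown and 2 labelled Ctrl, whose genotype is given as wild type. All 4 libraries came from the same line in the same kind of medium. How AFF4 was knocked down is not stated. No label names separate cultures for the replicates, so the p-values below cover the spread between libraries alone, and that spread may be technical. The study's title sets AFF4 against the release of paused RNA polymerase II.

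KMT2 enzymes add methyl groups to lysine 4 of histone H3 within multi-subunit complexes that share a small core, of which ASH2L is a part. KMT2A and KMT2B are held at promoters through menin, the product of MEN1, and through PSIP1 (LEDGF), a reader of chromatin in transcribed genes, whereas KMT2C and KMT2D act mainly at enhancers. DOT1L methylates lysine 79 of histone H3 in transcribed genes and is joined by MLLT10 (AF10) and MLLT6 (AF17). In leukaemias with a rearranged KMT2A gene, the fusion partners include AFF1, AFF4 and other members of the super elongation complex, which is the link between these enzymes and the gene that was knocked down.

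The family holds 3 pairs of paralogs whose transcripts differ in base composition, along which the Ctrl libraries also differed, as described further on. The transcript GC content was 46.9% for KMT2A and 63.5% for KMT2B, 45.0% for KMT2C and 59.1% for KMT2D, and 43.9% for MLLT10 and 58.7% for MLLT6. For each pair the most alike coding stretch of 40 codons that lies within a single exon in both genes is shown, 5′ to 3′ on the coding strand, from the GENCODE v29 transcripts of GRCh38. Capitals mark a G or C at the last position of a codon.
KMT2A, chr11:118522026-118522145, plus strand: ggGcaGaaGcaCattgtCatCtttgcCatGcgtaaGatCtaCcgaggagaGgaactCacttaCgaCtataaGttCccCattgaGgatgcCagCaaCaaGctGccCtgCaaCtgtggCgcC
KMT2B, chr19:35738411-35738530, plus strand: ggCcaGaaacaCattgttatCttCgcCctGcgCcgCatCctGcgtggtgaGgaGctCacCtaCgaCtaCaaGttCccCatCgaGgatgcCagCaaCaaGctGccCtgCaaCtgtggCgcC
KMT2C, chr7:152148604-152148723, minus strand: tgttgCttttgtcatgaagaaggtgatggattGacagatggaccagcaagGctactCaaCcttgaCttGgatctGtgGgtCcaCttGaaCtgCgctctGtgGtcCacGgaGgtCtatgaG
KMT2D, chr12:49026753-49026872, minus strand: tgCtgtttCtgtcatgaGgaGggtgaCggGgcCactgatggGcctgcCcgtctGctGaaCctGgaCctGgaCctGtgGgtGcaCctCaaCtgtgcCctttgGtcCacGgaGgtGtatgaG
MLLT10, chr10:21732907-21733026, plus strand: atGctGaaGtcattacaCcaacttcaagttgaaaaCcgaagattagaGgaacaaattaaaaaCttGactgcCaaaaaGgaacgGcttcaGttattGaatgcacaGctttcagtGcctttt
MLLT6, chr17:38720380-38720499, plus strand: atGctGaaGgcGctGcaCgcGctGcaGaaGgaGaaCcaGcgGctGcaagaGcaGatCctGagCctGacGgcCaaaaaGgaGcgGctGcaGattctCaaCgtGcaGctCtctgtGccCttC

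The KMT2A and KMT2B stretches lie near the carboxy-terminal end, where the catalytic SET domain is, and encode the same residue at 37 of 40 codons. They end their codons in G or C 29 times in KMT2A and 33 times in KMT2B. The KMT2C and KMT2D stretches encode the same residue at 39 of 40 codons and differ at 28 bases, 23 of them at the end of a codon, with 21 codons ending in G or C in KMT2C and 29 in KMT2D. The MLLT10 and MLLT6 stretches share 31 of 40 residues and end in G or C 15 times in MLLT10 and 36 times in MLLT6. Over the whole coding sequence, a G or C ended 43.9% of KMT2A codons and 66.3% of KMT2B codons, 37.3% of KMT2C and 61.0% of KMT2D codons, and 34.4% of MLLT10 and 73.6% of MLLT6 codons.

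Total counts were 17955867 and 16643610 in the knockdown libraries and 19129008 and 14903878 in the Ctrl libraries, of which the 10 genes took between 0.211% and 0.239%. AFF4 itself had 338 and 319 counts in the knockdown against 1650 and 1033 in Ctrl, a log2 fold change of -2.07 (edgeR quasi-likelihood test, adjusted p = 0.0268), in the direction of the labels. With a filter of at least 5 CPM its adjusted p was 0.0552 and the call was lost. Of 10 erythroid and megakaryocytic markers of HEL, 9 had counts in every library and GP1BB was at 0. Their summed level was 8850 to 8888 CPM (counts scaled to library size) in the knockdown and 12153 to 14486 CPM in Ctrl, most of it from the fetal globin genes HBG1 and HBG2. Without these the other 7 summed to 2409 and 2563 CPM in the knockdown and 2111 and 3086 CPM in Ctrl, so the groups overlapped. TAL1 (481 and 468 CPM in the knockdown, 434 and 437 CPM in Ctrl) and EPOR (45.8 and 52.9 CPM in the knockdown, 21.7 and 36.8 CPM in Ctrl) lay on the other side from the globin genes. Of 7 markers of other blood cells, LYZ alone reached 1 CPM, and CD3D and CD3E were at 0 in all 4 libraries. Of 6 markers chosen for non-blood cells, 3 reached 1 CPM (EPCAM, KRT8 and PECAM1), and COL1A2 was at 0. Their sum was 164 to 175 CPM in the knockdown and 196 to 207 CPM in Ctrl. PECAM1 alone gave 160 and 149 CPM in the knockdown and 185 and 169 CPM in Ctrl. PECAM1 is not confined to non-blood cells, so the sum does not measure such cells. In bulk RNA, fewer cells of a type and less RNA per cell cannot be told apart, and the part of these shifts in the results below was not tested.

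The Ctrl libraries stood apart from each other along GC content. Across 13218 tested genes with an annotated transcript, the log2 difference of Ctrl 2 minus Ctrl 1 had a Spearman's rho of 0.82 with transcript GC content. The same correlation for knockdown 2 minus knockdown 1 was 0.41, and for the fold change of knockdown over Ctrl it was -0.0043. These are descriptions across genes that share the same libraries, and genes are not independent replicates. In the GC-poorest of 5 equal-sized bins of genes, Ctrl 2 differed from Ctrl 1 by a median of -0.40 on the log2 scale, and in the GC-richest by 0.68. The knockdown libraries differed in the same bins by -0.05 and 0.11. The median log2 fold change of knockdown over Ctrl was -0.034 and -0.037 in these end bins. In the bins between it ran from -0.010 to 0.025, a course that a rank correlation does not show.

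The 10 genes followed this split without exception. The 5 with a transcript GC content of 58.7% to 63.5% (KMT2B, KMT2D, DOT1L, MEN1 and MLLT6) were higher in Ctrl 2 than in Ctrl 1, and the 5 with 40.4% to 48.9% (KMT2A, KMT2C, PSIP1, MLLT10 and ASH2L) were lower. Each of the 3 paralog pairs was therefore divided, with its GC-rich member higher and its GC-poor member lower in Ctrl 2. The gap between the Ctrl libraries exceeded the gap between the knockdown libraries in 10 of 10 genes, as in 84.4% of all tested genes. Its median size was 0.54 on the log2 scale for the 10 genes and 0.34 for all tested genes, while the knockdown gap had a median size of 0.09 in each.

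**Figure D1:**
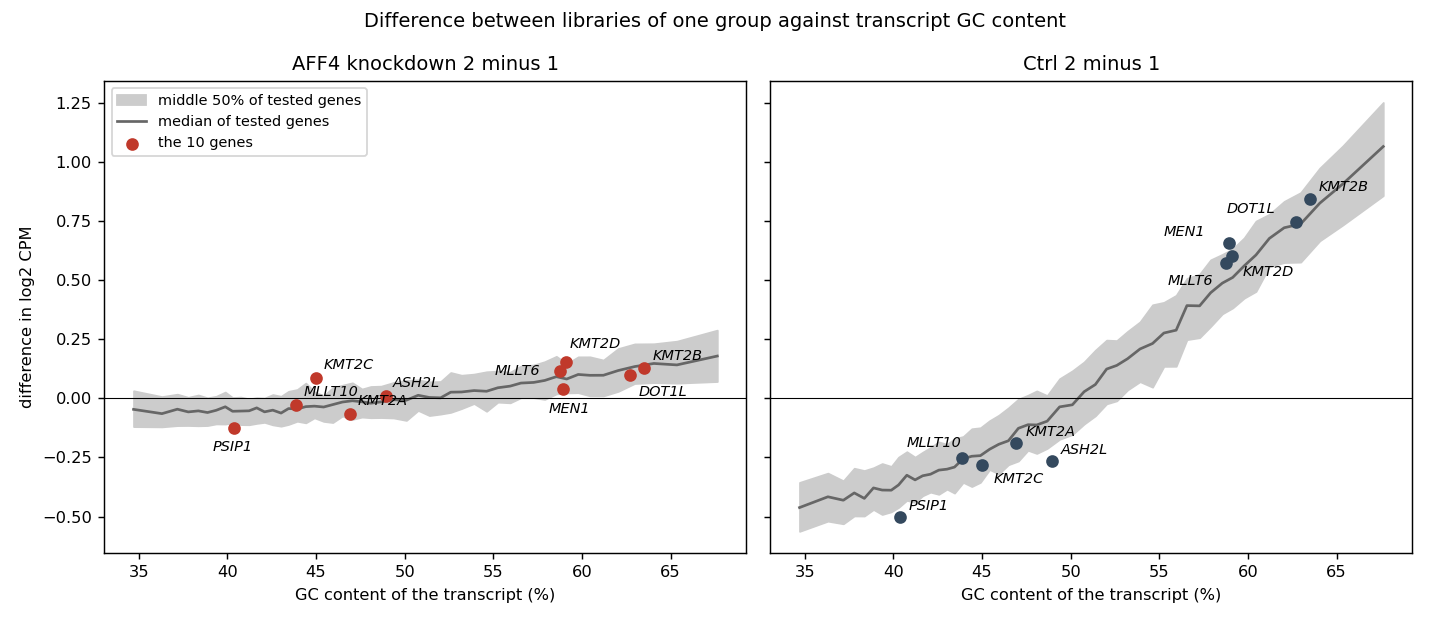
Difference in log2 CPM between the libraries of a group (y axis) against the GC content of the transcript in percent (x axis), for the knockdown libraries on the left and the Ctrl libraries on the right. Points are the 10 genes, the line is the median of tested genes in bins of GC content and the band their middle 50%; KMT2B lies highest (0.84) and PSIP1 lowest (-0.50) in the Ctrl panel, while in the knockdown panel KMT2D (0.15) lies furthest from no difference.

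Against this spread, no difference between knockdown and Ctrl was detected for any of the 10 genes. All 10 passed the filter on low counts, and 0 passed the edgeR quasi-likelihood test at an adjusted p under 0.05. Of the 13572 tested genes 0.641% passed, 0.346% higher and 0.295% lower in the knockdown. At an unadjusted p under 0.05 the count was also 0 of 10, against 15.0% of tested genes. DESeq2 and limma-voom each called 0 of the 10, beside 2.99% and 0.678% of tested genes. The log2 fold changes ran from -0.33 to 0.19, 4 positive and 6 negative, with a median of -0.09 beside -0.0089 over all tested genes. The groups overlapped in CPM, taken on TMM-scaled library sizes, in all 10 genes, whereas they did not overlap in 46.1% of tested genes. In 7 of 10 genes both knockdown libraries lay between the Ctrl libraries, against 33.7% of tested genes. The 95% interval of the fold change lay within 2-fold in either direction for all 10, its lowest bound being -0.79 for DOT1L and its highest 0.73 for MEN1 on the log2 scale, so smaller changes remain within the error.

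**Figure D2:**
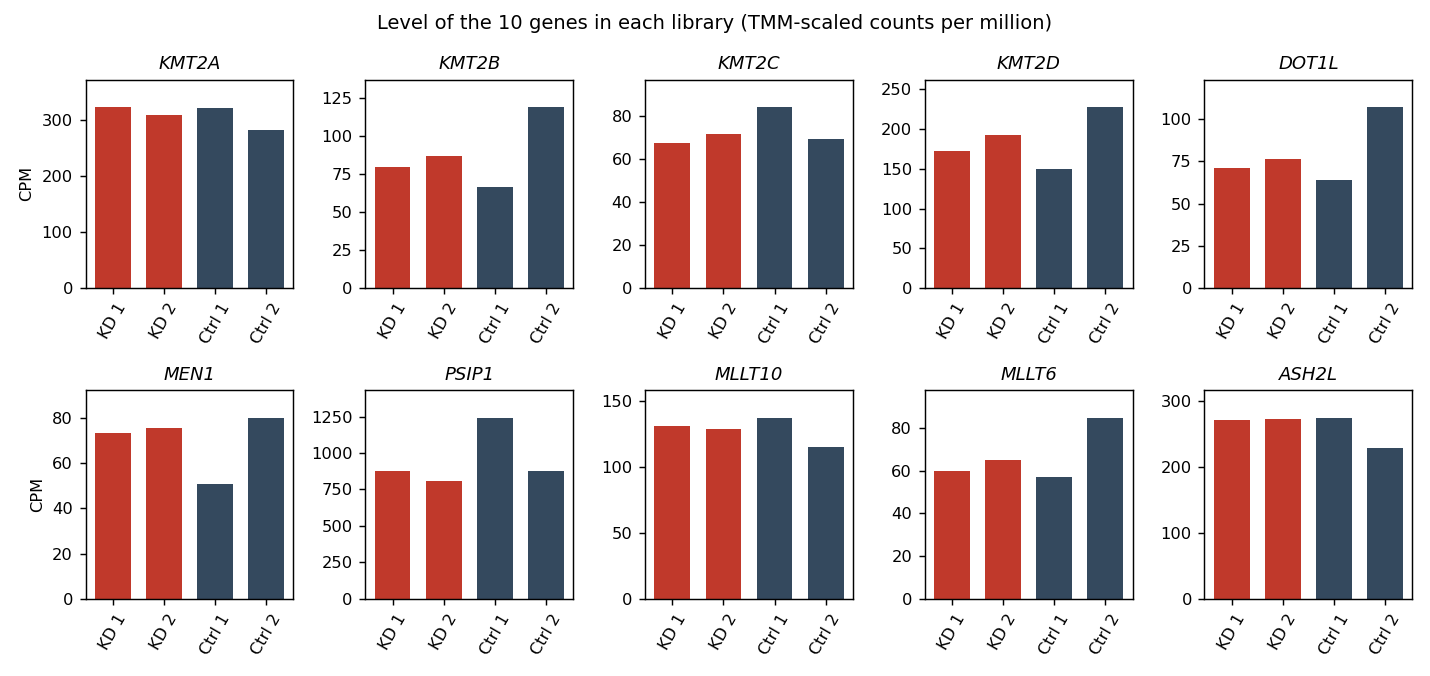
TMM-scaled CPM (y axis, from 0, a separate scale for each gene) of the 10 genes in knockdown 1 and 2 (red) and Ctrl 1 and 2 (dark). The red bars are close to each other in every panel, and the dark bars are further apart, with Ctrl 2 above Ctrl 1 in KMT2B, KMT2D, DOT1L, MEN1 and MLLT6 and below it in the other 5.

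KMT2A (ENSG00000118058.21; chromosome 11, 118436464 to 118526832, plus strand, GRCh38) is the MLL1 enzyme that is rearranged in leukaemia. It had 323 and 308.5 CPM in the knockdown libraries and 320.1 and 281 CPM in the Ctrl libraries, so the groups overlapped and Ctrl 2 was lowest. The log2 fold change was 0.07 ± 0.14 (SE; 95% interval -0.25 to 0.39; edgeR adjusted p = 0.885). Its exons overlap those of AP001267.5, an annotated gene on the same strand, over 17.9% of their length. AP001267.5 is not in the count table under that name, and how reads in the overlap were assigned is not stated.

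KMT2B (ENSG00000272333.5; chromosome 19, 35718019 to 35738878, plus strand) is the closest paralog of KMT2A and shares its binding to menin. It had 79.5 and 87.0 CPM in the knockdown against 66.3 and 119 CPM in Ctrl. Both knockdown libraries lay between the Ctrl libraries, which differed 1.79-fold, the widest Ctrl gap of the 10 genes. The log2 fold change was -0.15 ± 0.27 (SE; 95% interval -0.78 to 0.48; edgeR adjusted p = 0.868).

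KMT2C (ENSG00000055609.17; chromosome 7, 152134922 to 152436005, minus strand) and KMT2D (ENSG00000167548.15; chromosome 12, 49018975 to 49059774, minus strand) are the MLL3 and MLL4 enzymes, which monomethylate histone H3 at enhancers. KMT2C had 67.4 and 71.6 CPM in the knockdown and 84.0 and 69.2 CPM in Ctrl. Ctrl 1 was highest, and Ctrl 2 lay between the knockdown libraries. KMT2D had 173 and 192 CPM in the knockdown and 150.2 and 228 CPM in Ctrl, with the knockdown libraries in the middle. Their log2 fold changes were -0.14 ± 0.17 for KMT2C and -0.05 ± 0.21 for KMT2D (SE; edgeR adjusted p = 0.788 and 0.945). Parts of KMT2C are present elsewhere in the human genome in near-identical copies, and it is not stated how reads that map to several places were counted, so its level is uncertain.

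MEN1 (ENSG00000133895.14; chromosome 11, 64803510 to 64811294, minus strand) encodes menin, the scaffold that tethers KMT2A and KMT2B. It had 73.5 and 75.4 CPM in the knockdown against 50.8 and 80.1 CPM in Ctrl, so that the knockdown libraries were nearly equal and lay between the Ctrl libraries. The log2 fold change was 0.19 ± 0.23 (SE; 95% interval -0.35 to 0.73; edgeR adjusted p = 0.794).

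PSIP1 (ENSG00000164985.14; chromosome 9, 15464066 to 15511019, minus strand), whose longer p75 isoform binds the menin and KMT2A complex, was the most abundant of the 10 and had the smallest p. It had 879.8 and 807 CPM in the knockdown and 1243 and 878 CPM in Ctrl. Ctrl 1 stood well above the other libraries, and knockdown 1 lay just above Ctrl 2. The log2 fold change was -0.33 ± 0.18 (SE; 95% interval -0.75 to 0.09; edgeR adjusted p = 0.460). Counts per gene do not separate the p75 isoform from the shorter p52 isoform.

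ASH2L (ENSG00000129691.15; chromosome 8, 38105242 to 38144076, plus strand) is a core subunit that all KMT2 complexes need for full activity. It had 271 and 272 CPM in the knockdown and 275 and 228 CPM in Ctrl. Knockdown 1 and 2 were almost equal, and Ctrl 2 was lowest. The log2 fold change was 0.11 ± 0.15 (SE; 95% interval -0.23 to 0.45; edgeR adjusted p = 0.815).

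DOT1L (ENSG00000104885.17; chromosome 19, 2164149 to 2232578, plus strand) had 71.1 and 76.2 CPM in the knockdown and 63.8 and 107 CPM in Ctrl. The knockdown libraries lay between the Ctrl libraries and nearer to Ctrl 1. The log2 fold change was -0.21 ± 0.25 (SE; 95% interval -0.79 to 0.37; edgeR adjusted p = 0.780).

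MLLT10 (ENSG00000078403.16; chromosome 10, 21524675 to 21743630, plus strand), the cofactor that lets DOT1L place higher methylation states, had 131 and 129 CPM in the knockdown and 137 and 115 CPM in Ctrl. MLLT6 (ENSG00000275023.4; chromosome 17, 38705542 to 38729803, plus strand), its paralog, had 59.9 and 64.8 CPM in the knockdown and 57.0 and 84.8 CPM in Ctrl. In both genes the knockdown libraries lay between the Ctrl libraries. Their log2 fold changes were 0.04 ± 0.15 for MLLT10 and -0.18 ± 0.22 for MLLT6 (SE; edgeR adjusted p = 0.940 and 0.785).

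Levels of different genes were compared as CPM per kilobase of annotated exon. PSIP1 led with 125 ± 7.59 in the knockdown and 157 ± 38.1 in Ctrl (mean ± SD, n = 2 each), followed by ASH2L with 45.9 ± 0.176 and 42.5 ± 5.55. MLLT10 (18.7 in the knockdown, 18.2 in Ctrl) and MEN1 (17.5 and 15.4) came next, and the other 6 lay between 3.46 and 10.1 in the knockdown and between 3.81 and 9.60 in Ctrl. The order of the means was the same in both groups, ending with KMT2A, KMT2D, KMT2B, DOT1L, MLLT6 and KMT2C. In the knockdown the ranges of KMT2D and KMT2B overlapped. In Ctrl those of MLLT10 and MEN1 overlapped, as did each neighbouring pair from KMT2A down to MLLT6, so that these genes cannot be ordered there beyond their spread. The order also depends on the length used, since exons here include untranslated ones. Per kilobase of coding sequence MEN1 (40.3 in the knockdown, 35.5 in Ctrl) came before MLLT10 (35.5 and 34.6), and MLLT6 (17.6 and 19.97) and DOT1L (13.5 and 15.7) came before KMT2D and KMT2B. PSIP1, ASH2L and KMT2A kept their ranks, and KMT2C was again last.

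Within a library, the makeup of the KMT2 family does not depend on the scaling of the libraries. KMT2A made up 34.6% and 31.5% of the summed per-kilobase level of the KMT2 genes in the knockdown libraries and 36.3% and 25.5% in Ctrl 1 and Ctrl 2. KMT2B made up 25.9% and 27.1% in the knockdown against 22.9% and 33.0% in Ctrl, and KMT2D 28.3% and 30.0% against 26.0% and 31.7%. KMT2C was the smallest part in each library, with 11.2% and 11.4% in the knockdown and 14.8% and 9.79% in Ctrl. By this exonic length the leading gene was KMT2A in both knockdown libraries and in Ctrl 1, and KMT2B in Ctrl 2. For each of the KMT2 genes the groups overlapped (exact two-sided permutation test over the 4 libraries, p = 1), and the smallest p this design allows is 0.333. The shares depend on the length chosen. By coding length KMT2A held 52.0% and 48.6% in the knockdown and 53.7% and 41.3% in Ctrl, and by counts alone 50.2% and 46.8% in the knockdown and 51.6% and 40.3% in Ctrl, so that it led in all 4 libraries by either. The groups overlapped for each gene in these as well.

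**Figure D3:**
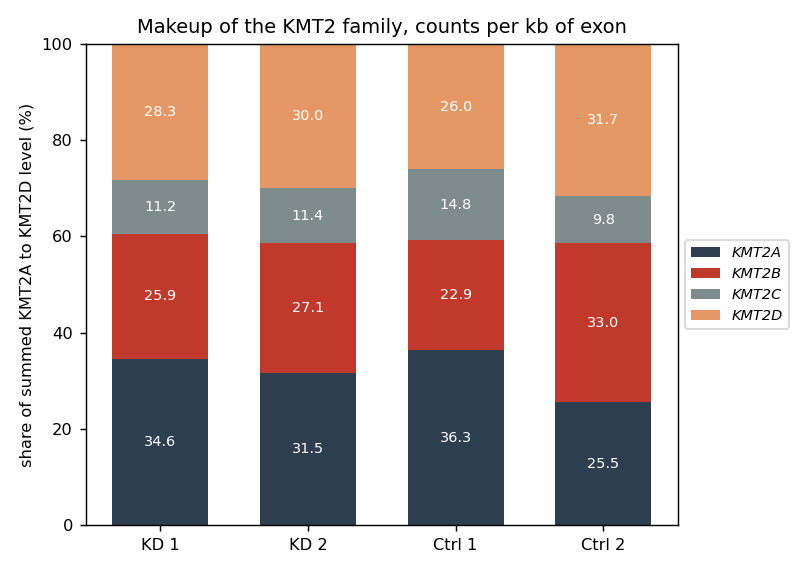
Share in percent (y axis) of KMT2A, KMT2B, KMT2C and KMT2D in their summed counts per kilobase of exon, with a stacked bar for each of the 2 knockdown and 2 Ctrl libraries. KMT2A is the widest segment in the knockdown libraries and Ctrl 1, and KMT2B (33.0%) in Ctrl 2; by coding length KMT2A leads in all 4 libraries.

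The ratio of DOT1L to its cofactors showed the same pattern. DOT1L stood at 0.334 and 0.365 of the MLLT10 level per kilobase in the knockdown and at 0.286 and 0.573 in Ctrl 1 and Ctrl 2. MLLT10 exceeded MLLT6 by 4.20-fold and 3.80-fold in the knockdown and by 4.62-fold and 2.61-fold in Ctrl. The ratio of DOT1L to MLLT6, which have transcripts of similar GC content, was steadier, at 1.40 and 1.39 in the knockdown and 1.32 and 1.49 in Ctrl. By coding length DOT1L stood below MLLT6, at 0.773 and 0.765 of its level in the knockdown and 0.729 and 0.822 in Ctrl. In each of the 3 ratios, by either length, both knockdown libraries lay between the Ctrl libraries (exact two-sided permutation test, p = 1).

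Because the Ctrl libraries differed along GC content, CPM and fold changes were also corrected for it, but not the shares, ratios and levels per kilobase above. A smooth trend of log2 CPM on transcript GC content was fitted to each library. The departure of that trend from the mean trend of the 4 libraries was removed. The median gap between the Ctrl libraries over the 10 genes was then 0.07 on the log2 scale, and the largest was 0.22, that of ASH2L. In these values the groups did not overlap in 8 of 10 genes, all but KMT2D and ASH2L, as in 67.2% of tested genes. The fold changes stayed close to the uncorrected ones and their errors shrank. PSIP1 had corrected levels of 871 and 827 CPM in the knockdown and 1093 and 985 CPM in Ctrl, and fell by 0.29 ± 0.06 on the log2 scale (± SE; adjusted p = 0.0105 in edgeR). MEN1 had 75.8 and 73.5 CPM in the knockdown and 60.5 and 67.2 CPM in Ctrl, and rose by 0.22 ± 0.07 on the log2 scale (± SE; adjusted p = 0.0401 in edgeR). These 2 of 10 genes passed after the correction, where 31.0% of tested genes passed, which is no larger a share than the background.

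DOT1L (-0.16 ± 0.06), MLLT6 (-0.16 ± 0.06) and KMT2C (-0.14 ± 0.07) had corrected log2 fold changes below 0 that did not pass (SE; edgeR adjusted p = 0.0654, 0.0914 and 0.140). The corrected values of KMT2A, KMT2B, KMT2D, MLLT10 and ASH2L lay between -0.08 and 0.09, with edgeR adjusted p from 0.291 to 0.840. PSIP1 at -0.29 and MEN1 at 0.22 were thus the lowest and highest corrected values of the genes described here.

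Which Ctrl library was used decided the direction for most of the 10 genes. Without Ctrl 1, KMT2B (-0.52), DOT1L (-0.54), MLLT6 (-0.44) and KMT2D (-0.32) fell, and ASH2L (0.25), MLLT10 (0.18) and KMT2A (0.17) rose (log2 fold changes; edgeR adjusted p from 5.77e-11 to 0.0417). Without Ctrl 2, MEN1 (0.55), KMT2B (0.33), KMT2D (0.28) and DOT1L (0.21) rose, and PSIP1 (-0.56) and KMT2C (-0.28) fell (edgeR adjusted p from 2.39e-18 to 0.0252). KMT2B, KMT2D and DOT1L therefore passed in opposite directions. In these fits the spread came from the knockdown libraries alone, and 44.0% of tested genes passed without Ctrl 1 and 48.4% without Ctrl 2, beside 7 and 6 of the 10 genes. PSIP1 was at -0.06 without Ctrl 1 and MEN1 at -0.10. With knockdown 1 or knockdown 2 left out, 0 of the 10 passed, where 0.331% and 0.366% of tested genes passed.

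**Figure D4:**
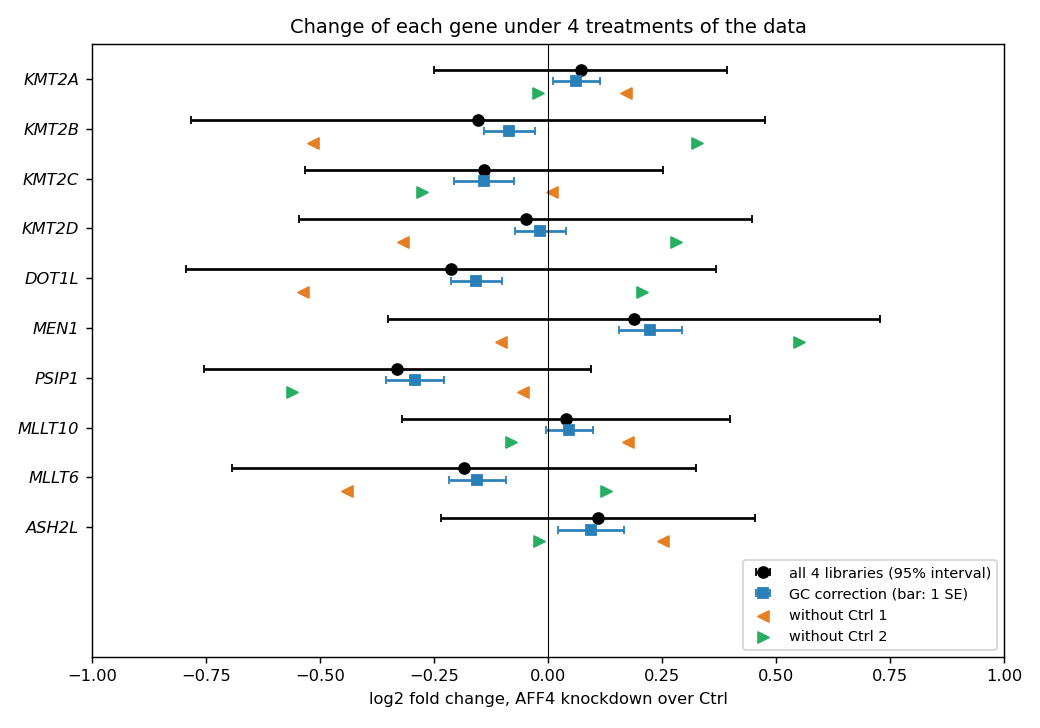
Log2 fold change of knockdown over Ctrl (x axis) for the 10 genes (rows): all 4 libraries with 95% intervals (black), after the GC correction with bars of 1 SE (blue), and without Ctrl 1 or Ctrl 2 (triangles). All 10 black intervals cross 0, the triangles lie on opposite sides of 0 in every gene but PSIP1, and PSIP1 (-0.29) and MEN1 (0.22) have the outermost blue points.

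The other genes of the pathway were set in lists around the 10. Of 15 further genes listed with the KMT2 and SETD1 complexes, all tested, 0 passed edgeR and 0 had an unadjusted p under 0.05. Their median log2 fold change was -0.09, with 6 positive and 9 negative. The smallest p belonged to NCOA6, a coactivator subunit of the KMT2C and KMT2D complexes (-0.18, edgeR adjusted p = 0.643), and HCFC1, a host cell factor in the KMT2A and SETD1 complexes (-0.26, edgeR adjusted p = 0.722). The core subunit WDR5 was at -0.06, the methyltransferase SETD1A at 0.03 and the demethylase KDM6A, which sits in the KMT2C and KMT2D complexes, at -0.09.

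The 13 genes that place or remove ubiquitin on histone H2B, a mark that stimulates DOT1L, together with the PAF1 complex, had a median of 0.03 with 0 passing edgeR. At an unadjusted p under 0.05, WDR61, a PAF1 complex subunit, was higher, with 74.2 and 72.2 CPM in the knockdown and 57.5 and 49.8 CPM in Ctrl (log2 fold change 0.45, edgeR adjusted p = 0.262). UBE2A, a ubiquitin-conjugating enzyme for H2B, was lower, with 29.6 and 27.8 CPM in the knockdown and 47.8 and 40.8 CPM in Ctrl (log2 fold change -0.63, edgeR adjusted p = 0.168). The groups did not overlap in 5 of the 13 genes (38.5%), both of these among them, beside 46.1% of all tested genes. An unadjusted p under 0.05 in edgeR was found for 15.0% of all tested genes. The H2B ubiquitin ligase RNF20 was at -0.09 and the scaffold PAF1 at 0.17.

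Of 14 genes listed for reading or erasing the lysine 4 and lysine 79 marks, 0 passed edgeR, and the median was -0.04. At an unadjusted p under 0.05 in edgeR, 0 were higher and 1 lower, BPTF, beside 15.0% of all tested genes. The groups did not overlap in 6 of the 14 genes (42.9%), beside 46.1% of all tested genes. BPTF, a reader of trimethylated lysine 4 in the NURF remodeller, had 95.6 and 85.1 CPM in the knockdown and 137 and 112 CPM in Ctrl (log2 fold change -0.47, edgeR adjusted p = 0.255). ING4, a reader of the same mark, was at 0.32 (edgeR adjusted p = 0.441). Among 10 super elongation complex genes, AFF4 fell and the other 9 had a median of 0.18, with AFF1 at 0.42 and MLLT3 at 0.44 (edgeR adjusted p = 0.245 and 0.310). AFF1 and MLLT3 were higher and AFF4 lower at an unadjusted p under 0.05 in edgeR. The groups did not overlap in 6 of these 10 genes (60%).

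Genes known as targets of KMT2A fusions and DOT1L in leukaemia were partly silent in these cells. Of 16 such genes 12 were tested, 0 passed edgeR, 0 had an unadjusted p under 0.05, and the median was 0.10. The groups did not overlap in 7 of the 12 (58.3%). HOXA9 had 0 and 0 counts in the knockdown and 0 and 1 in Ctrl, and HOXA7, FLT3 and RUNX2 were also too low to test. HOXA10 and MEIS1 were present, with 35.9 and 35.5 CPM in the knockdown and 31.4 and 33.4 CPM in Ctrl for HOXA10, and log2 fold changes of 0.14 and 0.10. The smallest p belonged to the proto-oncogene MYB, with 217 and 209 CPM in the knockdown and 188 and 155 CPM in Ctrl (log2 fold change 0.31, edgeR adjusted p = 0.404), and to HOXA5 (0.62, edgeR adjusted p = 0.430), which rested on 26 to 50 counts. HOXA10 was named after its values were seen.

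After the GC correction 3 of 15 further complex genes, 4 of 13 H2B ubiquitination genes, 2 of 14 reader and eraser genes, 6 of 10 super elongation complex genes and 3 of 12 leukaemia targets passed edgeR, beside 31.0% of tested genes. Of these 6 super elongation complex genes 5 were higher in the knockdown, and the 1 lower was AFF4, the gene knocked down. AFF4 is also among the super elongation complex genes counted next. Without Ctrl 1 the counts were 9, 8, 6, 7 and 5 in the same order, beside 44.0% of tested genes, and without Ctrl 2 they were 5, 9, 7, 7 and 3, beside 48.4%.

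**Figure D5:**
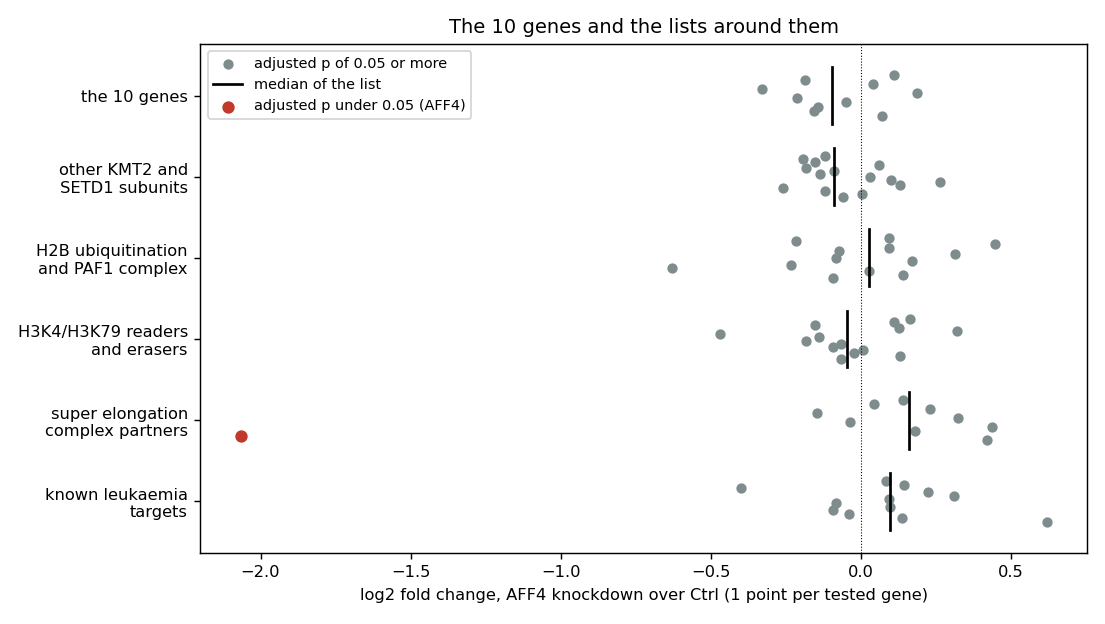
Log2 fold change of knockdown over Ctrl (x axis) of each tested gene in the 10 genes and in 5 lists around them (rows), with the median of each list as a vertical bar. AFF4 at -2.07 is the single point with an adjusted p under 0.05 (red), and the 10 genes lie between -0.33 and 0.19.

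Among 10696 other genes of at least 5 mean CPM, the profile over the 4 libraries most like that of PSIP1 was that of RSF1, a chromatin remodelling subunit, followed by FBXO5, an inhibitor of the anaphase-promoting complex, and RARS, the arginyl-tRNA synthetase. The likeness was the Euclidean distance between centred log2 CPM, which was 0.0121, 0.0250 and 0.0260, beside a median of 0.557 over all genes compared. These genes were taken for their small distance, so a value below the median was fixed in advance. RSF1 had 67.5 and 61.7 CPM in the knockdown and 94.5 and 67.4 CPM in Ctrl, with Ctrl 1 highest as for PSIP1. These transcripts had a GC content of 38.5%, 39.0% and 41.4%, beside 40.4% for PSIP1.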

How the data were processed

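The deposited table held whole-number counts of reads per gene, not normalized by the authors. Per the submitters' processing notes, fastp 0.13.1, HISAT2 2.1.0, featureCounts 1.6.1 and the build hg38 were used, with no roles given. The labels' protocols describe a stranded (dUTP) library, but the annotation, the strand setting of the counting and its handling of multi-mapped reads are not stated in them. The 4 value columns were matched to samples by name, and 0 others were present.

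The test across all genes was edgeR 4.0.16 (R 4.3.3). Genes were kept by filterByExpr (minimum count 10, minimum total 15), which left 13572, and libraries were scaled by TMM, which treats most genes as unchanged. A quasi-likelihood model with group as its only term was fitted to all 4 libraries, with Benjamini-Hochberg adjustment over all tested genes and a threshold of 0.05. The SE is the absolute log2 fold change over the square root of F, and the 95% interval uses the t distribution at the fit's degrees of freedom. The procedures were run on simulated counts with known changes, set to a smaller spread between libraries than was estimated here. That run cannot vouch for the p-values after the GC correction.

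Positions, lengths and GC content (longest protein-coding transcript, or the longest where a gene has none) came from GENCODE v29 (GRCh38, also called hg38), with 97.4% of tested genes matched. The GC correction fits a lowess trend (span 0.4) of log2 CPM on GC content in each library. It subtracts the departure of that trend from the mean over libraries, and enters as an offset. The alternatives also covered other scalings and filters, DESeq2 1.42.0, limma-voom (limma 3.58.1), a replicate block and each library left out. The 10 genes, the lists and the alternatives were chosen with earlier results of these data known. Named from each list were its members that passed or else the 2 of smallest p, with a few set by role.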

Additional observations from a re-analysis of the deposited data

How the results depend on the processing

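Among all genes, 1 passed higher and 4 lower of 10813 with at least 5 CPM in 2 libraries, so few that 0 of 10 says little there. With no filter 328 passed higher and 406 lower of 18862. RLE scaling gave 47 higher and 41 lower of 13572, upper quartile scaling 47 and 40, and library-size scaling 42 and 32. At an adjusted p under 0.01 the count over all genes is not given. Of the 10 genes 0 passed with RLE, upper quartile or library-size scaling, with no filter, with at least 5 CPM in 2 libraries, in DESeq2, in limma-voom, with the replicate block or at an adjusted p under 0.01, and each gene kept its direction there. The counts were 2 with the GC correction and 3 with the GC correction and replicate block (DOT1L as well, at -0.16, edgeR adjusted p = 0.0396; 40.8% of all tested genes passed there), and 0 to 7 with 1 library left out. With the replicate block alone the median of the 10 genes was -0.06. Same-numbered libraries deviated together across genes (Pearson r = 0.29), but with 2 pairs and no label naming a shared batch the numbers were not taken as pairs. The block gave 408 higher and 480 lower among all genes, beside 47 and 40 without it.

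With 1 library left out, log2 fold changes ran from -0.021 to 0.17 for KMT2A, -0.52 to 0.33 for KMT2B, -0.28 to 0.0093 for KMT2C, -0.32 to 0.28 for KMT2D, -0.54 to 0.21 for DOT1L, -0.10 to 0.55 for MEN1, -0.082 to 0.18 for MLLT10, -0.44 to 0.13 for MLLT6 and -0.019 to 0.25 for ASH2L, each changing sign. PSIP1 ran from -0.56 to -0.06 and kept its sign. The cause was not tested. The median of the 10 genes ran from -0.15 to 0.05.

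The lists follow the same order as in the report, and these alternatives were added after the data were seen. With the GC correction, where 31.0% of all tested genes passed, the counts past the threshold were 3, 4, 2, 6 (AFF4 among them) and 3. With the GC correction and replicate block, where 40.8% passed, the counts were 4, 6, 5, 7 (AFF4 again among them) and 3. They ran from 0 to 9, 0 to 9, 0 to 7, 1 to 7 and 0 to 5 with 1 library left out, while the share of all tested genes that passed ran from 0.331% to 48.4%. AFF4 was the 1 super elongation complex gene that passed, and 0 of that list passed with at least 5 CPM in 2 libraries and 0 at an adjusted p under 0.01. Each of the 10 genes had at least 948 counts in every library, and the gap between the Ctrl libraries exceeded the fold change in all 10, as in 64.3% of all tested genes.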

Other observations

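Exons of several of the 10 genes overlap genes on the opposite strand, and whether the counting used strand is not stated. The exons of STAR, which encodes a cholesterol transport protein, share 338 bases with ASH2L (5.72% of the exonic length of ASH2L), and STAR had 2484 and 2424 counts in the knockdown and 1972 and 2047 in Ctrl. PLEKHJ1 shares 529 bases with DOT1L and had 575 and 602 counts in the knockdown and 400 and 517 in Ctrl. SNAPC3, a subunit of the small nuclear RNA activating complex, shares 140 bases with PSIP1 and had 4695 and 4027 counts in the knockdown and 5998 and 3821 in Ctrl. IGFLR1 shares 78 bases with KMT2B. The processed pseudogene MLLT10P1 had 1 and 2 counts in the knockdown and 2 and 2 in Ctrl, beside at least 1721 counts for MLLT10 in each library.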
